A study of Mus musculus with 15 samples.

Results

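The response to any ligand of the retinoic acid receptors (RAR) was measured by pooling 9 RNA sequencing libraries that received one and setting them against 6 that did not, out of 15 libraries in all. Members were chosen by the treatment in the labels. The libraries with a RAR ligand came from 266-6 cells, a mouse pancreatic acinar line, given AM580, a synthetic agonist selective for RARα, AM580 together with CD3254 (AM+CD), or 9-cis retinoic acid, with 3 libraries each. The libraries without one came from cells given the vehicle DMSO or CD3254, a synthetic agonist of the retinoid X receptors (RXR), also with 3 libraries each. All cells had been grown in DMEM with 10% FBS, then kept for 24 h in stripped medium before 24 h with the ligand or vehicle. Ligand concentrations were not given in the sources used here, every library comes from 1 cell line, and nothing says that replicates were separate cultures. The p-values therefore set differences against the variation among these samples, and that variation may be technical. With treatments pooled into arms, it also holds differences between the treatments of 1 arm.

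RARs bind DNA as heterodimers with RXRs, at response elements made of paired hexamer half-sites. Without ligand the RAR partner recruits corepressors, and an agonist exchanges them for coactivators, so that nearby genes are transcribed more. Retinoic acid is known to raise genes for its own disposal and storage, and 9-cis retinoic acid binds receptors of both families.

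Libraries held between 28501170 and 46801058 reads in genes, apart from 9-cis retinoic acid replicate 3 with 14600962, of which 14.9% lay in rRNA-like genes against at most 2.06% elsewhere. The first principal component, with 48.3% of the variance, divided 5 libraries, with every treatment represented 1 time, from the remaining 10. These were replicate 1 of DMSO, CD3254, AM580 and 9-cis retinoic acid, and replicate 2 of AM+CD. This library set was read from the same counts, and the labels name no batch for it. It entered the fits over all 15 libraries as a term, apart from alternatives said at the end to lack it. AM580 replicate 1 lay farthest out on the first component and 9-cis retinoic acid replicate 3 on the second, so counts of calls are also given without both. Of 14 acinar markers, 11 averaged at least 1 CPM (read counts scaled to a common library total), and their summed level spanned 7096 to 12216 CPM with a RAR ligand and 6969 to 12146 CPM without. The pancreatic amylase gene Amy2a5 was at 0 in 13 libraries and the insulin gene Ins1 in all 15, while the endocrine marker Chga reached 307 CPM and the fibroblast marker Pdgfrb 203 CPM on average with a RAR ligand.

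A response element is shown for Rarb, which encodes RARβ and is a classic retinoic acid target, because it was among the genes that rose here. The run below is the 120 bases before a RefSeq start on GRCm38.p6, chr14:16575477-16575596, minus strand, written 5′ to 3′. Capitals mark a pair of direct-repeat half-sites 5 bases apart, at positions -53 to -37 from the start. This start lies inside Rarb as annotated (16430839 to 16819156), and counts per gene do not tell its transcripts apart. The second run is the same stretch for Cyp26a1, which encodes a retinoic acid hydroxylase, at chr19:37697688-37697807, plus strand, where the pair lies in the opposite orientation at -32 to -16.
Rarb: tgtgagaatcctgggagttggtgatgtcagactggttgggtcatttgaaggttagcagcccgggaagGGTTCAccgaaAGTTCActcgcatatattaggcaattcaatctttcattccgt
Cyp26a1: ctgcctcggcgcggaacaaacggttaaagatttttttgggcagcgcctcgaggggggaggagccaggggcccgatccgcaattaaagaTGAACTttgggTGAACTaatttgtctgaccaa
Half-sites searched on both strands were AGGTCA and its variants AGTTCA and GGGTCA, with GGTTCA as the last, in windows from 250 bases before to 50 bases after each start. A pair with a spacer of 5 occurred in 31 of 27025 genes with a RefSeq promoter (0.115%), with a spacer of 2 in 84 (0.311%) and with a spacer of 1 in 71 (0.263%). Of the 13 genes that rose in the pooled comparison, 12 matched a promoter, and Rarb alone held such a pair, with a spacer of 5. A match is a description of the letters, and elements outside the window were not searched. Cyp26a1 itself gave 30 reads over the 15 libraries, 20 in the 9 with a RAR ligand and 10 in the 6 without. It did not reach the filter for testing.

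The pooled comparison asked which transcripts differed between cells with and without a RAR ligand, whichever ligand it was. Ligands of RXR were not spread evenly over the arms. AM+CD and 9-cis retinoic acid bring them into the arm with a RAR ligand, and CD3254 into the other. A pooled difference can therefore include a response to RXR ligands or to both kinds together, which the fit with 2 arms does not separate. Of 16736 genes tested, 13 rose (0.0777%) and 0 fell (0%) at an FDR under 0.05, where FDR is the Benjamini-Hochberg adjusted p of edgeR's quasi-likelihood test. The genes that rose were Dhrs3, Rarb, Pim3, Enpp1, Adh1, Rab17, Car9, Myrip, Itga2, AC117700.1, Pde7b, AI661453 and Muc1. They spanned log2 changes from 0.65 for Car9 to 2.85 for Rarb. The direction over all genes was nearly even, with a fitted value above 0 for 8839 genes (52.8%) and a median of 0.01 on the log2 scale. At an unadjusted p under 0.05, 514 genes were higher (3.07%) and 383 lower (2.29%), where 836.8 of the genes tested would be expected in both directions together. DESeq2, run with the same model, called 15 genes lower. In RNA from whole cultures, a change in the share of cells of one kind and a change in RNA per cell cannot be told apart.

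**Figure D1:**
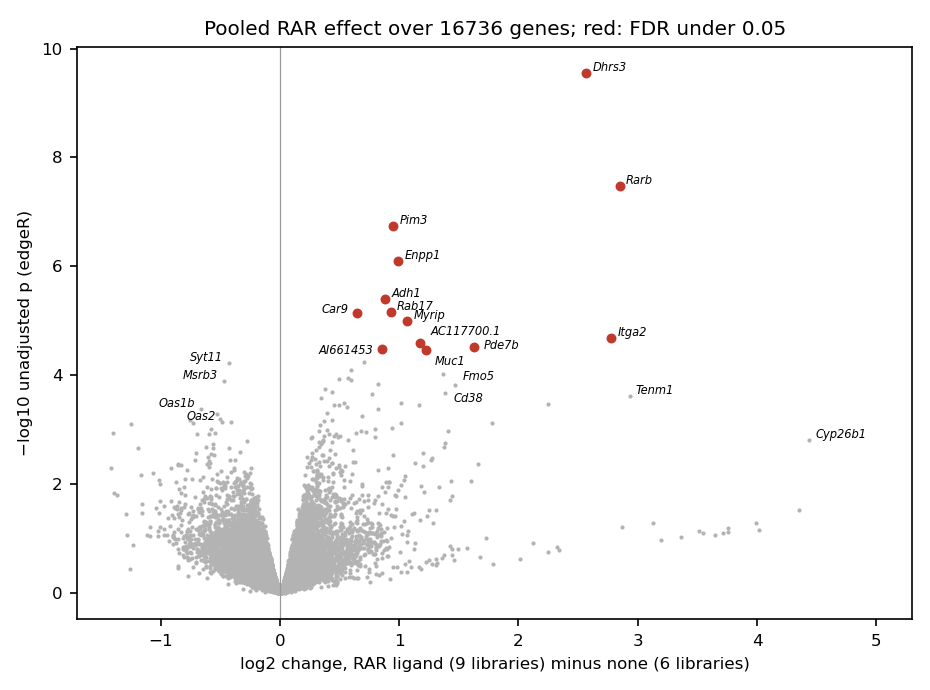
Fitted log2 change (RAR ligand minus none, x axis) against the negative log10 of the unadjusted edgeR p (y axis) for the 16736 genes tested. Red points are the 13 genes with an FDR under 0.05, all to the right of 0, and grey points are the others, with Syt11 and Msrb3 the highest on the left.

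Among genes that act on retinoids themselves, Dhrs3, which encodes a retinaldehyde reductase that returns retinaldehyde to retinol, had the smallest adjusted p. Dhrs3 (ENSMUSG00000066026, GRCm38 chromosome 4, 144892827 to 144928209) stood between 2.60 and 10.8 CPM (median 3.56) without a RAR ligand and between 14.6 and 54.1 CPM (median 25.5) with one. The groups did not overlap, and the highest library without a RAR ligand was CD3254 replicate 1. Dhrs3 rose 5.93-fold, or by 2.57 ± 0.20 (SE) on the log2 scale (FDR = 4.70e-06). Within the 10-library set the log2 change was 2.64 and within the 5-library set 2.41.

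Rarb (ENSMUSG00000017491, chromosome 14, 16430839 to 16819156, minus strand) ranged from 0.203 to 0.663 CPM (median 0.326) without a RAR ligand, which was 8 to 25 reads a library. With a RAR ligand it ranged from 1.29 to 3.71 CPM (median 2.30). Every library with a RAR ligand lay above every library without. Rarb rose 7.20-fold, or by 2.85 ± 0.30 on the log2 scale (FDR = 0.00028), and gave 3.12 in the 10-library set and 2.32 in the 5-library set. Top2b overlaps Rarb on the opposite strand, and the strand setting of the counting was not given in the sources used here.

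Adh1, an alcohol dehydrogenase that can oxidise retinol, is annotated on chromosome 3 (ENSMUSG00000074207, 138260991 to 138290698). It lay between 33.7 and 67.4 CPM (median 58.8) without a RAR ligand and between 80.4 and 132 CPM (median 97.8) with one, again with no overlap. Adh1 rose 1.84-fold (log2 0.88 ± 0.13, FDR = 0.0133). An antisense model overlaps it.

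Cyp26b1, whose cytochrome P450 degrades retinoic acid, had the largest fitted change of any gene tested; it did not pass in edgeR's pooled comparison and passed in DESeq2 with the same model. Cyp26b1 (ENSMUSG00000063415, chromosome 6, 84571414 to 84593908) was between 0.0503 and 4.67 CPM (median 0.892) without a RAR ligand and between 2.16 and 127 CPM (median 7.35) with one. The groups overlapped over all 15 libraries, since CD3254 replicate 1, at 4.67 CPM, lay above 2 AM580 libraries and 1 library of 9-cis retinoic acid, yet they did not overlap within either library set. The log2 change was 4.44 ± 1.11 with an edgeR FDR of 0.340. By treatment, the mean was 0.307 ± 0.315 CPM with DMSO, 2.41 ± 1.96 with CD3254, 3.84 ± 2.65 with AM580, 71.8 ± 48.3 with AM+CD and 9.24 ± 6.80 with 9-cis retinoic acid (SD, n = 3 each). In a fit with 5 treatment means, which takes the differences between treatments of 1 arm out of the spread, the mean of the 3 RAR treatments exceeded the mean of DMSO and CD3254 by 4.06 ± 0.22 on the log2 scale (edgeR FDR = 7.59e-07).

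Cd38, the NAD-hydrolysing ectoenzyme, and Fmo5, a flavin-containing monooxygenase, showed the same division between the fits, and both passed in DESeq2 with 2 arms. Cd38 was at 0.653 to 2.84 CPM (median 1.79) without a RAR ligand and at 2.64 to 7.15 CPM (median 5.14) with one. Its lowest libraries with a RAR ligand were AM580 replicate 1 and 9-cis retinoic acid replicate 1, both of the 5-library set, and within each set the arms did not overlap. The pooled log2 change of Cd38 was 1.39 ± 0.30 (FDR = 0.138), and with treatment means it was 1.52 ± 0.20 (FDR = 0.00606). Fmo5 was at 3.37 to 10.9 CPM (median 5.20) without and at 8.31 to 38.2 CPM (median 15.6) with a RAR ligand. The pooled log2 change of Fmo5 was 1.47 ± 0.30 (FDR = 0.108), and with treatment means it was 1.51 ± 0.13 (FDR = 6.76e-05). In both genes CD3254 alone stood between DMSO and the RAR ligands, with means of 2.63 against 1.01 CPM for Cd38 and 8.96 against 3.72 CPM for Fmo5.

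**Figure D2:**
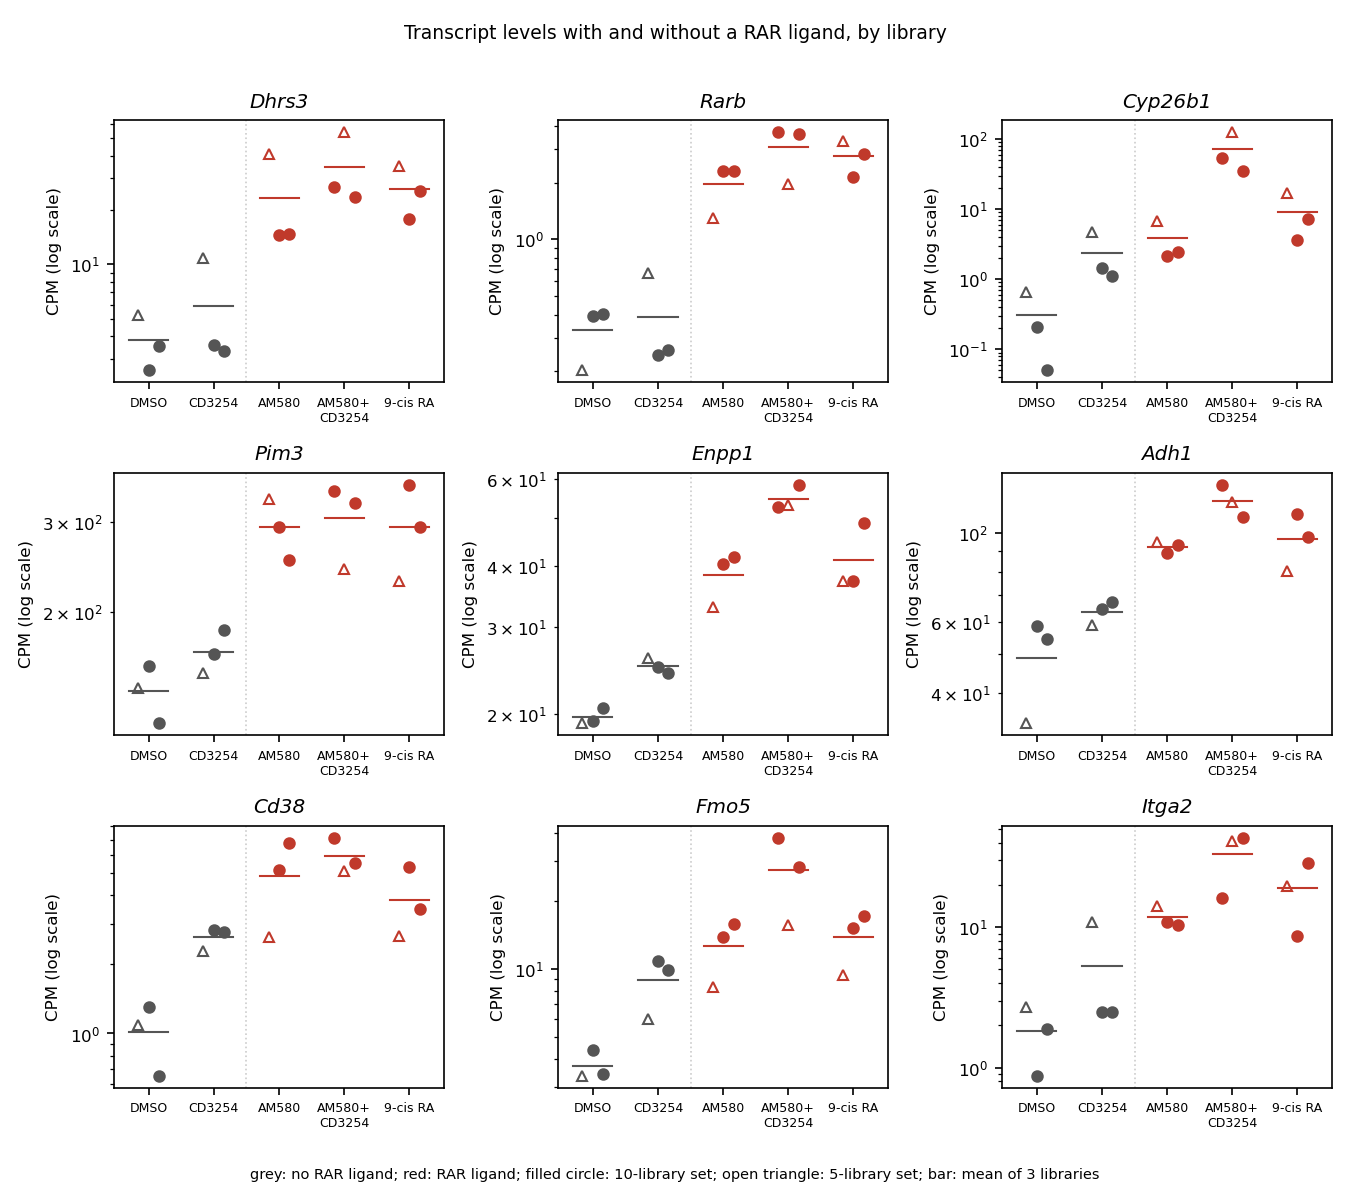
CPM on a log axis for 9 genes, by treatment on the x axis, 1 marker a library (filled circles for the 10-library set, open triangles for the 5-library set) and a bar at the mean of 3 libraries. Grey marks libraries without and red those with a RAR ligand; Dhrs3, Rarb, Pim3, Enpp1 and Adh1 do not overlap between colours, while Cyp26b1, Cd38, Fmo5 and Itga2 do.

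Pim3, a serine/threonine kinase of the PIM family (ENSMUSG00000035828, chromosome 15, 88862186 to 88865726), had the third smallest adjusted p. It lay between 121 and 184 CPM (median 154) without a RAR ligand and between 230 and 354 CPM (median 293) with one. The groups did not overlap, and Pim3 rose 1.93-fold (log2 0.95 ± 0.11, FDR = 0.00101), by 0.99 in the 10-library set and 0.85 in the 5-library set.

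Enpp1, which hydrolyses extracellular nucleotides (ENSMUSG00000037370, chromosome 10, 24637914 to 24712159), lay between 19.2 and 26.0 CPM (median 22.4) without a RAR ligand. With one it lay between 33.0 and 58.4 CPM (median 41.6), and no libraries overlapped. Enpp1 rose 1.99-fold (log2 0.99 ± 0.13, FDR = 0.00335). Of 12 ectonucleotidase genes tested, Enpp1 was the only one to pass in edgeR's pooled comparison, and Cd38 was a second in DESeq2. That list was chosen with earlier results of these data known.

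Itga2, the α2 subunit of a collagen-binding integrin (ENSMUSG00000015533, chromosome 13, 114833081 to 114932100), had a fold close to that of Rarb. It lay between 0.876 and 10.9 CPM (median 2.49) without a RAR ligand and between 8.60 and 43.4 CPM (median 16.1) with one. CD3254 replicate 1, at 10.9 CPM, overlapped 3 libraries with a RAR ligand, and the next library without one stood at 2.71 CPM. Itga2 rose 6.85-fold (log2 2.78 ± 0.48, FDR = 0.0381), with 3.31 in the 10-library set and 1.85 in the 5-library set.

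Car9, a membrane-bound carbonic anhydrase known for its rise in low oxygen (ENSMUSG00000028463, chromosome 4, 43506966 to 43513729), differed more between the library sets than between the arms. In the 10-library set it lay between 26.3 and 30.7 CPM without a RAR ligand and between 37.3 and 56.5 CPM with one. In the 5-library set the values were 141 CPM in both libraries without and 165, 196 and 248 CPM in those with a RAR ligand. Car9 rose 1.57-fold (log2 0.65 ± 0.10, FDR = 0.0171), and by 0.71 in the 10-library set fitted alone (FDR = 0.0427). The summed level of 28 hypoxia genes moved with the library set as well, from 2592 to 3802 CPM in the 10 libraries and from 14656 to 21955 CPM in the 5. In the 5-library set it was 14656 and 15323 CPM without a RAR ligand and 16673, 17107 and 21955 CPM with one. The arms overlapped in the 10-library set. The part of the hypoxia level in the Car9 difference was not tested. Besides Car9, 0 hypoxia genes passed in edgeR's test or in DESeq2. A value above 0 was found for 22 of the 28, against 52.8% of all genes. The median of the 28 was 0.18, or 0.07 without 9-cis retinoic acid replicate 3 and AM580 replicate 1 in the fit. Car9 was among 5 that were higher at an unadjusted p under 0.05, against 3.07% of all genes.

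Muc1, Rab17 and Myrip belong to epithelial surfaces and vesicle traffic. Muc1, a transmembrane mucin (chromosome 3, 89229057 to 89233381), was low, at 0.477 to 0.760 CPM (median 0.663, 18 to 32 reads) without a RAR ligand and 0.958 to 2.41 CPM (median 1.63) with one, with no overlap. It rose 2.34-fold (log2 1.22 ± 0.22, FDR = 0.0450). Rab17, a small GTPase of polarised epithelia (chromosome 1, 90958133 to 90969661), rose 1.90-fold, from 3.80 ± 0.957 CPM (SD, n = 6) to 7.32 ± 1.37 CPM (SD, n = 9; edgeR FDR = 0.0171). Its highest library without a RAR ligand, at 5.36 CPM, touched its lowest with one, also at 5.36 CPM. Myrip, which links Rab27 to myosin (chromosome 9, 120301513 to 120474841), rose 2.10-fold (FDR = 0.0210), from a median of 4.58 to one of 12.7 CPM, and 5 of the 9 libraries with a RAR ligand stood above all 6 without.

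Pde7b, a phosphodiesterase of cyclic AMP (chromosome 10, 20398004 to 20725078), rose 3.08-fold, from 1.12 ± 0.417 to 3.61 ± 1.91 CPM (FDR = 0.0450), with 8.02 CPM in AM+CD replicate 3. AI661453 (chromosome 17, 47436615 to 47470638) rose 1.81-fold, from 3.14 ± 0.770 to 5.64 ± 1.03 CPM (FDR = 0.0450), and shares its locus with 1700001C19Rik on the opposite strand. AC117700.1, annotated as a sense-overlapping transcript within Ttll8, rose 2.25-fold, from 0.878 ± 0.344 to 1.92 ± 0.320 CPM (FDR = 0.0425). It lies on chromosome 15 from 88889780 to 88891525, beyond the end of Pim3 on the same chromosome, and its reads cannot be told apart from those of Ttll8 where the annotations overlap.

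All 13 genes had a value above 0 in both library sets, and in all 13 the arms did not overlap within either set. The background for that count was 62 genes (0.37%) with every RAR library higher within each set and 17 (0.102%) with every one lower. The 13 genes were called from these same libraries, so their signs and separation within the sets are no separate check of them. Fitted alone, the 10 libraries gave 9 genes higher (0.0538%) and 0 lower, with 488 higher and 271 lower at an unadjusted p under 0.05, and 8 of the 13 were among the 9. The 5 libraries alone, with 3 against 2, gave 0 genes higher (0%) and 0 lower in edgeR's test, with 573 and 290 at an unadjusted p under 0.05 and a smallest FDR of 0.618. The interaction of arm and set, which tests whether the response differed between the sets, called 0 genes (0%) at a smallest edgeR FDR of 0.490, with 1164 genes more positive and 484 more negative in the 5-library set at an unadjusted p under 0.05. Of the 13, Myrip (1.40 in the 10 libraries, 0.45 in the 5, edgeR p before adjustment 0.00396) and AC117700.1 (1.52 and 0.53, 0.0168) were below 0.05 in that test only before adjustment.

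**Figure D3:**
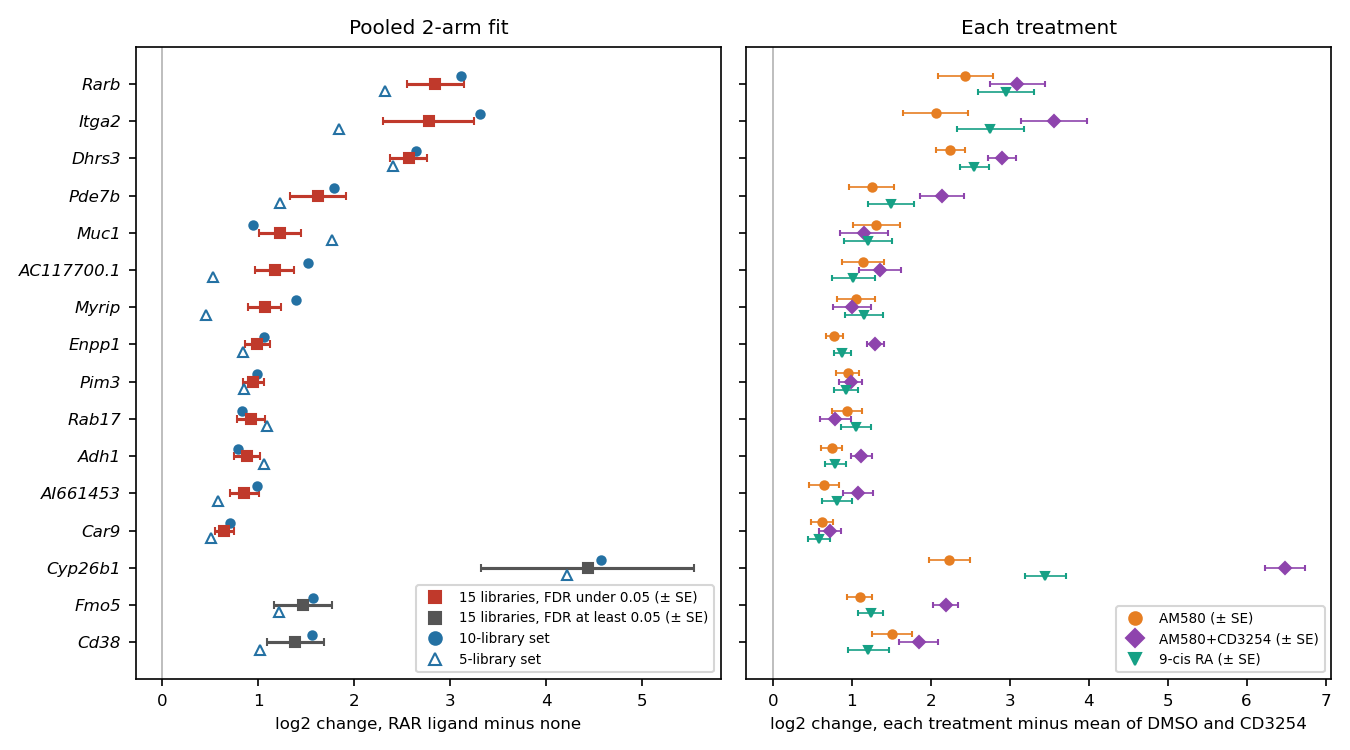
Log2 change on the x axis for the 13 genes that rose and for Cyp26b1, Fmo5 and Cd38. On the left are the pooled value (squares, bars ± SE) and the values within the 10-library (circles) and 5-library set (triangles), all above 0; on the right is each RAR treatment minus the mean of DMSO and CD3254 (± SE), where Cyp26b1 spreads from 2.24 to 6.48 and Pim3 from 0.93 to 0.99.

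The 3 RAR treatments were then set beside each other. Each was compared with the mean of DMSO and CD3254, so the comparisons share 6 libraries. A response to CD3254 enters both AM+CD and this reference, but not AM580. These comparisons therefore do not tell larger values or counts with AM+CD apart from a response to CD3254. With AM580 6 genes were higher (0.0359%), with AM+CD 19 (0.114%) and with 9-cis retinoic acid 6 (0.0359%). Each treatment gave 0 lower in edgeR's test, with 362, 321 and 247 genes lower at an unadjusted p under 0.05. The log2 changes of Dhrs3 were 2.25 ± 0.18 with AM580, 2.90 ± 0.18 with AM+CD and 2.55 ± 0.18 with 9-cis retinoic acid. Those of Pim3 were 0.95 ± 0.15, 0.99 ± 0.15 and 0.93 ± 0.15, and those of Enpp1 were 0.78 ± 0.11, 1.30 ± 0.11 and 0.88 ± 0.11. For Rarb they were 2.44 ± 0.35, 3.10 ± 0.35 and 2.95 ± 0.35. In the same fit, CD3254 alone minus DMSO was 0.48 ± 0.22 for Dhrs3 and 0.25 ± 0.18 for Pim3. It was 0.35 ± 0.13 for Enpp1 and 0.23 ± 0.48 for Rarb.

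A test of any difference among the 3 treatments passed for 2 genes (0.012%), Cyp26b1 (edgeR FDR = 9.81e-06) and Angptl4 (FDR = 0.00959), with 425 genes at an unadjusted p under 0.05. None of the 13 genes that rose passed it, which does not show that they responded alike. For Cyp26b1 the log2 changes were 2.24 ± 0.26 with AM580, 6.48 ± 0.25 with AM+CD and 3.45 ± 0.26 with 9-cis retinoic acid. Cyp26b1 also differed between the treatments without a RAR ligand, where CD3254 exceeded DMSO by 2.99 ± 0.37 (FDR = 0.0105). Angptl4, which encodes a secreted inhibitor of lipoprotein lipase, stood at -1.51 with AM580, 1.11 with AM+CD and -1.20 with 9-cis retinoic acid. Its pooled value was -0.58 (edgeR FDR = 0.843). The values of the 3 treatments are against the mean of DMSO and CD3254, which holds any response to CD3254. Negative values of Angptl4 therefore do not by themselves show a fall from DMSO.

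With the 5 treatment means, the mean of the 3 RAR treatments was higher for 15 genes (0.0896%) and lower for 0 in edgeR's test, with 371 lower at an unadjusted p under 0.05 and 14 lower in DESeq2 with treatment means. The 2 fits shared 9 genes. AC117700.1, AI661453, Muc1 and Myrip passed only in the fit with 2 arms, and Cyp26b1, Cd38, Fmo5, H19, Tenm1 and Nqo2 only in the fit with treatment means. Tenm1, a teneurin of cell adhesion, was at 0.0302 to 0.637 CPM without and 0.623 to 5.64 CPM with a RAR ligand, and H19, an imprinted long noncoding RNA, at 54.6 to 456 CPM without and 77.7 to 923 CPM with one. H19 was also higher in the 5-library set in both arms. Nqo2, a quinone reductase, was at 15.8 to 34.3 CPM without and 21.5 to 54.8 CPM with a RAR ligand. The groups of all 3 genes overlapped.

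Genes that fall were looked for in the same fits. The smallest FDR of a lower value in the pooled comparison was 0.0676, for Syt11, a synaptotagmin of vesicle traffic (ENSMUSG00000068923, chromosome 3, 88744700 to 88775164). Syt11 lay between 21.0 and 34.7 CPM (median 26.7) without a RAR ligand and between 17.2 and 23.2 CPM (median 19.5) with one. The groups overlapped at the edge, and 5 of 9 libraries with a RAR ligand lay below all 6 without. The log2 change was -0.43 ± 0.08, and Syt11 passed only without CD3254 replicate 3 (-0.48, FDR = 0.0433) among fits that left out 1 library.

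Msrb3, a methionine sulfoxide reductase (chromosome 10, 120781096 to 120899101), was at 20.7 to 31.7 CPM (median 25.0) without and 12.5 to 23.1 CPM (median 17.5) with a RAR ligand, with a log2 change of -0.47 ± 0.09 (edgeR FDR = 0.0999). Within each library set, every library of Msrb3 with a RAR ligand was below those without. Next came Oas1b, of the oligoadenylate synthetase family and annotated as a polymorphic pseudogene, at -0.66 ± 0.15 (FDR = 0.187). Rnf112, a RING finger protein gene, followed at -0.53 ± 0.12 (FDR = 0.217). Arxes2 on the X chromosome was at -0.51 ± 0.12 (FDR = 0.251). None of these 5 passed in edgeR's pooled comparison, while DESeq2 called all 5 lower.

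The lower calls depended on the tool. DESeq2 with the same model called 61 genes higher (0.38%) and 15 lower (0.0935%) of 16043 genes with an adjusted p, and all 13 genes above were among the 61. Its 15 lower genes had log2 changes from -1.36 to -0.28 and included Syt11 (DESeq2 adjusted p = 0.000248), Msrb3 (0.000796), Rnf112 (0.00999), Oas1b (0.0109), Arxes2 (0.0138), Oas2 (0.0183) and Ifih1 (0.0218). Without overlap over all 15 libraries, 3 genes were lower (0.0179%), namely Extl2, Tmem71 and 4930579G24Rik, and 12 were higher (0.0717%). The 12 held 6 of the 13 genes that rose, Dhrs3, Rarb, Pim3, Enpp1, Adh1 and Muc1.

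**Figure D4:**
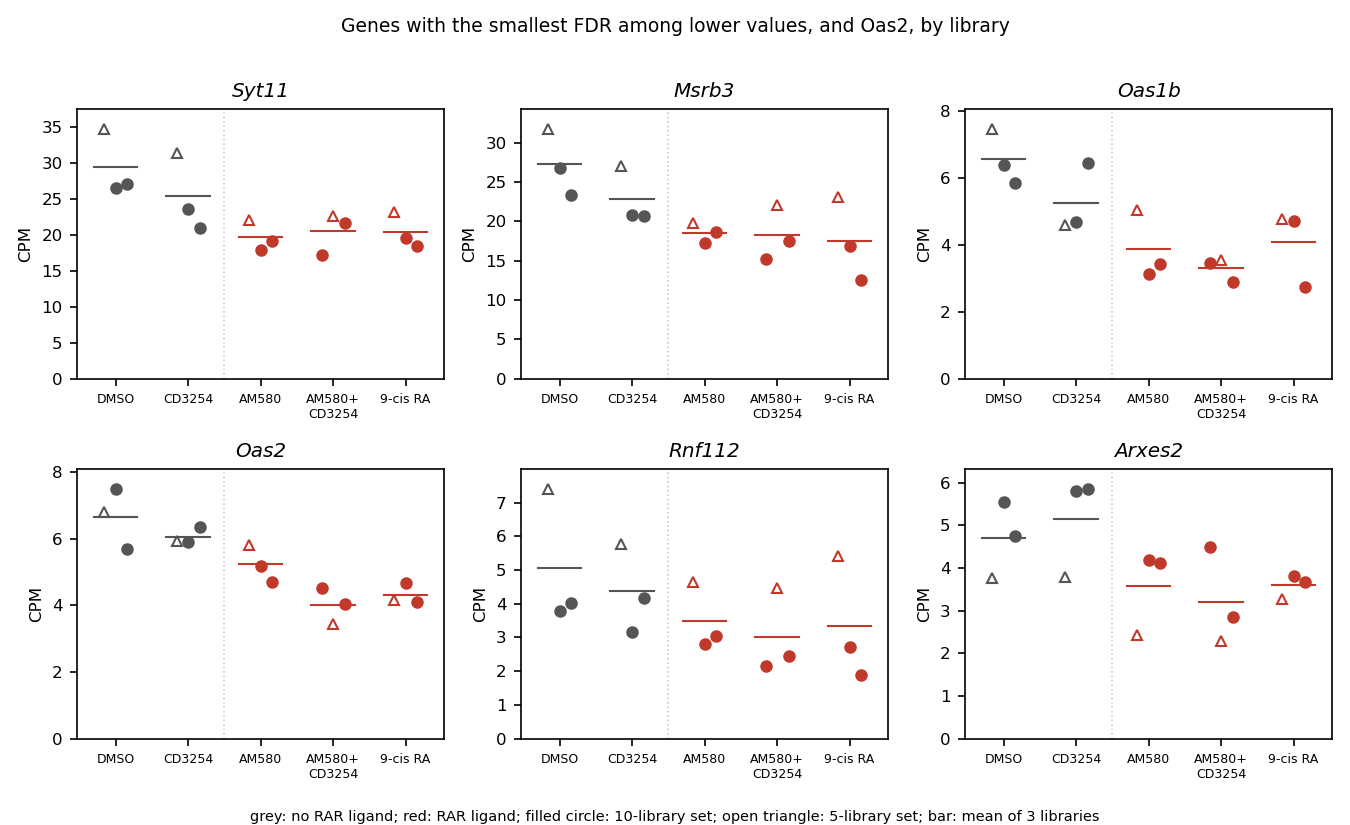
CPM from 0 for 6 genes with lower fitted values, by treatment on the x axis, with the same markers and bars as in the plot of genes that were higher. The red markers (RAR ligand) lie lower on average, while none of the 6 genes passed in edgeR's pooled test.

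Leaving out 1 library at a time, Dhrs3, Rarb, Pim3 and Enpp1 passed in 15 of 15 fits. Adh1 was lost without DMSO replicate 3 (edgeR FDR = 0.0584) and Rab17 without CD3254 replicate 2 (FDR = 0.0685). Car9 was lost without DMSO replicate 2 (0.0639), DMSO replicate 3 (0.0760) or CD3254 replicate 2 (0.0685). Myrip was lost without DMSO replicate 2 (0.0892), DMSO replicate 3 (0.0950), AM580 replicate 2 (0.05003), CD3254 replicate 2 (0.112) or CD3254 replicate 3 (0.103). Itga2 passed in 5 of the 15 fits, Pde7b and AC117700.1 in 4 and Muc1 and AI661453 in 2, with FDRs up to 0.167, 0.202, 0.168, 0.218 and 0.174. Itga2 held only without AM580 replicate 3, CD3254 replicate 1, AM+CD replicate 3 or 1 of the first 2 replicates of 9-cis retinoic acid. Pde7b held only without AM580 replicate 1, CD3254 replicate 1, AM+CD replicate 3 or 9-cis retinoic acid replicate 2. AC117700.1 held only without AM580 replicate 1, CD3254 replicate 1 or replicate 1 or 3 of 9-cis retinoic acid. Muc1 held only without 9-cis retinoic acid replicate 2 or AM580 replicate 3, and AI661453 only without AM580 replicate 1 or 3. With the 2 outlying libraries (9-cis retinoic acid replicate 3 and AM580 replicate 1) removed, 14 genes were higher and 1 lower, the unnamed ENSMUSG00000096252. Of the 13 genes 11 were among these 14, and Itga2 (FDR = 0.107) and Muc1 (FDR = 0.0668) were not.

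Gene lists are described by their counts, beside the 13 genes that rose among all 16736. Of all genes 3.07% were higher and 2.29% lower at an unadjusted p under 0.05. Of 40 RAR targets tested, 3 rose in edgeR's pooled test, Dhrs3, Rarb and Itga2, and 0 fell. DESeq2 with the same model called 6 higher, adding Btg2, Cd38 and Cyp26b1, and edgeR with treatment means called 5. Itga2 was put in that list with earlier results of these data known. A value above 0 was found for 33 of the 40, against 52.8% of all genes, and the median was 0.16 against 0.01. At an unadjusted p under 0.05, 12 of the 40 were higher and 0 lower. The RAR target median was 0.10, with 31 above 0, with 9-cis retinoic acid replicate 3 and AM580 replicate 1 removed. Tgm2, a transglutaminase long used as a retinoic acid target, was at 5.76 to 23.8 CPM (median 11.3) without and 11.1 to 56.5 CPM (median 33.6) with a RAR ligand, and differed by 1.38 ± 0.37 on the log2 scale (FDR = 0.350). Btg2, an antiproliferative gene, was at 0.37 ± 0.09 (edgeR FDR = 0.253) and passed in DESeq2. Hoxa5, an early target in embryonic cells, was at 0.07 (FDR = 0.848).

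The receptors other than Rarb did not pass. Rara was at 12.8 to 29.5 CPM without and 12.6 to 35.6 CPM with a RAR ligand (log2 0.13 ± 0.10, edgeR FDR = 0.810). Rarg was at 0.21 ± 0.12, Rxrb at 0.16 ± 0.10 and Rxra at 0.09 ± 0.10. Rxrg had 16 reads over all libraries and was not tested.

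Among 31 genes of retinoid metabolism, Dhrs3 and Adh1 rose in edgeR's pooled test and 0 fell. DESeq2 called Cyp26b1 besides them, and edgeR with treatment means called 3. At an unadjusted p under 0.05 in the pooled test, 5 of the 31 were higher and 0 lower, against 3.07% and 2.29% of all genes. Above 0 were 16 and below 0 were 15, with a median of 0.03, or 12 and 19 with a median of -0.02 with 9-cis retinoic acid replicate 3 and AM580 replicate 1 removed. Rdh10, the main retinol dehydrogenase of the embryo, was at 0.03 (FDR = 0.948), and the retinaldehyde dehydrogenases Aldh1a2 and Aldh1a3 were at -0.07 and -0.06. Cyp26c1 gave 14 reads in all and was not tested.

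Acinar identity genes gave 0 calls in edgeR's test and in DESeq2. Of 35 acinar enzyme genes 26 lay above 0, with a median of 0.12 over all libraries, -0.08 in the 10-library set and 0.47 in the 5-library set, and 3 were higher at an unadjusted p under 0.05. The summed level of the 35 was highest in AM580 replicate 1, at 14592 CPM, and with 9-cis retinoic acid replicate 3 and AM580 replicate 1 removed 17 lay above and 18 below 0, with a median of -0.0067. The 3 were Pnliprp1 at 0.52, Sycn at 0.66 and Tff2 at 0.61. Of 17 acinar transcription factors 0 passed, with a median of 0.06, and at an unadjusted p under 0.05 there were 4 higher and 1 lower. Over all genes 52.8% lay above 0, and 3.07% were higher and 2.29% lower at that p. In the ductal and progenitor list Muc1 was the only one of 20 to pass, and the Notch target Hes1 was at 0.34 ± 0.08 (FDR = 0.264) and passed in DESeq2. The summed level of 4 ductal markers was 25.1 to 65.3 CPM with a RAR ligand and 22.7 to 44.1 CPM without, and its part in the Muc1 result was not tested.

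Other nuclear receptors also pair with RXRs. Of 29 targets of the liver X receptors 14 lay above 0 and 15 below, with a median of -0.01. Of 34 targets of the peroxisome proliferator-activated receptors 15 lay above and 19 below, with a median of -0.02. Both lists gave 0 calls in edgeR's test and in DESeq2, with 1 and 2 members at an unadjusted p under 0.05.

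The list of 24 adhesion and guidance receptors was also chosen with earlier results of these data known. Itga2 alone of them passed in edgeR's test, and Tenm1 was a second in DESeq2. The 8 remaining lists gave 0 calls there, with medians from -0.09 for 14 endocrine markers to 0.21 for 9 immune and endothelial markers, and from 0 to 4 members higher and 0 to 1 lower at an unadjusted p under 0.05. They were coactivators and corepressors, endocrine, fibroblast and stellate, and immune and endothelial markers, stress response, cell cycle, Hox, and immediate early genes. The immune and endothelial median was 0.02 without 9-cis retinoic acid replicate 3 and AM580 replicate 1 in the fit, and the summed level of those 9 genes was highest in AM580 replicate 1, at 124 CPM. DESeq2 called Klf4 among the immediate early genes and 0 members of the other 7. The summed level of the 6 defining immune and endothelial markers was 4.83 to 24.7 CPM with a RAR ligand and 5.24 to 15.6 CPM without.

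Interferon-stimulated genes, which encode antiviral effectors, lay mostly below 0. Of 28 tested, 0 passed in edgeR's test and 2, Oas2 and Ifih1, were lower in DESeq2. In all 22 lay below 0, and 9 were lower and 0 higher at an unadjusted p under 0.05. Of all 16736 genes 7897 lay below 0, and 383 were lower (2.29%) and 514 higher (3.07%) at that p. The median was -0.19 against 0.01 over all genes. Oas2, another oligoadenylate synthetase, was at 5.71 to 7.49 CPM (median 6.14) without and 3.44 to 5.81 CPM (median 4.52) with a RAR ligand. Only AM580 replicate 1, at 5.81 CPM, reached into the range without. The log2 change was -0.49 ± 0.12 (FDR = 0.253). Ifih1, the RNA sensor MDA5, was at -0.58 ± 0.15 (FDR = 0.297), Mx2 at -0.62 ± 0.17 (FDR = 0.397) and Ifit1 at -0.58 ± 0.18 (FDR = 0.549). The class I genes H2-K1 and H2-D1 were at 0.05 each. Several of these genes belong to families with similar copies, so reads may be split between members and single values are uncertain.

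The interferon list varied with the library set and with AM580 replicate 1. Its median was -0.30 in the 10-library set, where 2 of 28 lay above 0, and -0.02 in the 5-library set, where 13 did. The summed level was highest in AM580 replicate 1, at 2944 CPM, against 1390 to 1857 CPM in the other 8 libraries with a RAR ligand and 1554 to 2062 CPM in those without. With 9-cis retinoic acid replicate 3 and AM580 replicate 1 removed, all 28 lay below 0, with a median of -0.27, beside -0.00 for all genes. The ranges of the sums overlapped between the arms.

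**Figure D5:**
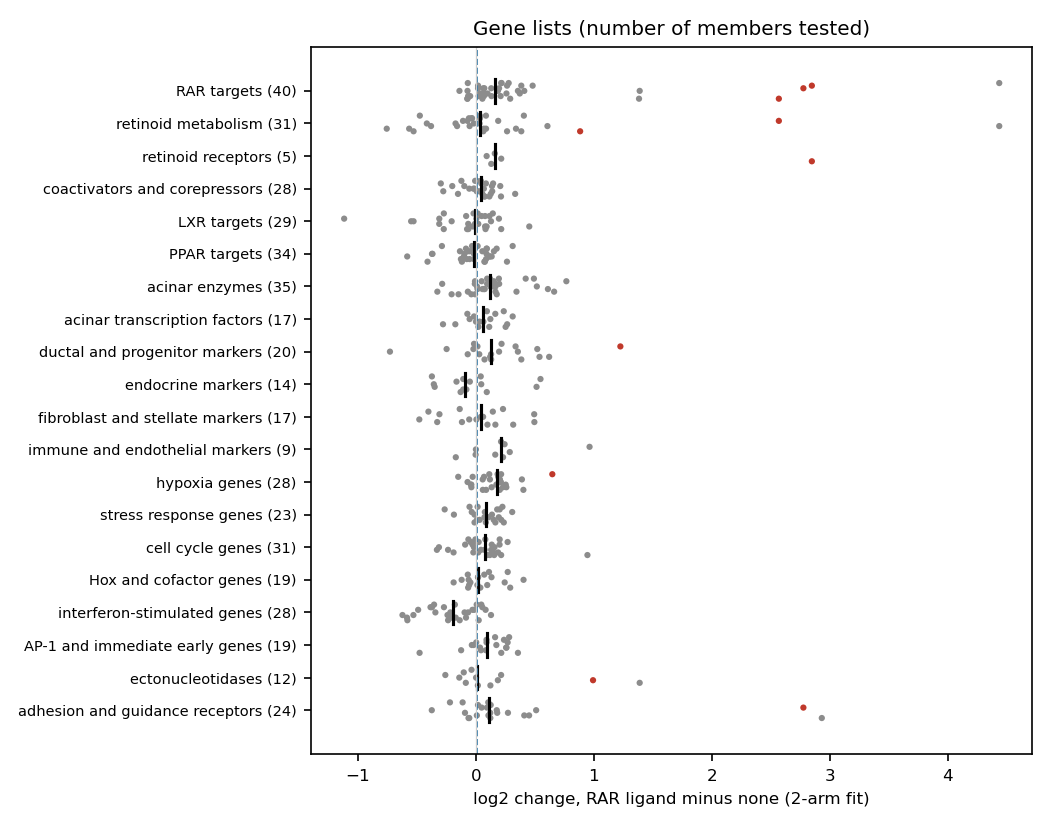
Log2 change (RAR ligand minus none, x axis) of each tested member of 20 gene lists, with black ticks at list medians, red points for members with an FDR under 0.05 and a dashed line at the median of all genes. Cyp26b1, in the lists of RAR targets and retinoid metabolism, lies farthest to the right, and the interferon-stimulated genes have the lowest median, at -0.19.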

How the data were processed

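RNA of 15 libraries of 266-6 cells was sequenced. The authors deposited 1 table of raw read counts per Ensembl gene; reads had been processed on mm10 with HISAT2 2.2.1, HTSeq, SAMtools 1.18 and FastQC, per the submitters' processing notes. No source used here gives the strand setting or the annotation release. The 5 categories of reads without a gene were dropped; they held 18.1% to 28.5% of reads in 14 libraries and 63.0% in 9-cis retinoic acid replicate 3. Of 43432 identifiers, 42462 matched a symbol; coordinates are GENCODE M21 on GRCm38, promoters RefSeq on GRCm38.p6.

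Counts were fitted with edgeR 4.0.16 in R 4.3.3: filterByExpr on the 5 treatments (16736 genes), TMM scaling, robust quasi-likelihood F tests, two-sided, Benjamini-Hochberg over all genes tested. The model had 2 arms and the library set (12 residual degrees of freedom), or 5 treatment means and the set (9). The median biological coefficient of variation was 0.190. SEs come from the F statistics, CPM uses TMM totals, and library set PCA used a prior count of 2. DESeq2 1.42.0 was an alternative. The scripts were tested on simulated data.

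Named genes were 5 given ones (Cyp26b1, Dhrs3, Rarb, Cd38, Fmo5), the 15 largest calls each way at a mean of at least 1 CPM, called list members, the 5 smallest FDRs each way and the retinoid receptors. H19, Tenm1, Nqo2, Oas2, Ifih1, Mx2, Ifit1, Tgm2, Btg2 and Angptl4, and list members named beside them, were chosen after their values were seen. The arms, the library set, the lists and the genes were chosen with earlier results of these data known. Alternatives were other scalings, filters, models and tools, each replicate left out, and 3 added after seeing the data.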

Additional observations from a re-analysis of the deposited data

Results flagged for a closer look

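In 6 of 68 groups of values (34 named genes in 2 arms) a single library stood apart from the rest of its arm by Dixon's criterion. Chance alone meets that criterion in about 1 group in 20 if the values of a group share 1 normal distribution. CD3254 replicate 1 was the highest library without a RAR ligand for 3 genes, with 4.67 CPM for Cyp26b1 (next 1.43), 10.8 CPM for Dhrs3 (next 5.24) and 10.9 CPM for Itga2 (next 2.71). AM+CD replicate 2 reached 127 CPM for Cyp26b1, where the next library with a RAR ligand had 53.3. AM+CD replicate 3 reached 8.02 CPM for Pde7b (next 4.45) and 5.64 CPM for Tenm1 (next 3.05). Each arm holds more than 1 treatment and both library sets, and many of the genes were chosen for their values. The rate of 1 in 20 therefore need not hold here. Cyp26b1 also differed among AM580, AM+CD and 9-cis retinoic acid in a test of that difference (edgeR FDR = 9.81e-06).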

How the results depend on the processing

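Against 13 genes higher and 0 lower, edgeR gave 4 higher with no library set term, 4 with AM+CD left out, 6 with CD3254 left out, 5 and 1 lower with 9-cis retinoic acid left out, 25 and 1 lower (Syt11) with a term for CD3254, and 0 in the 5-library set alone. DESeq2 gave 61 and 15 lower, or 54 and 14 lower with treatment means. With 9-cis retinoic acid replicate 3 and AM580 replicate 1 both left out there were 14 higher and 1 lower, or 30 and 4 lower (Creb3l3, Msrb3, Oas1b and ENSMUSG00000096252) with treatment means; these fits and DESeq2 with treatment means were added after seeing the data. Leaving out 1 library at a time gave 5 to 13 higher and 0 to 1 lower. The count moved by over 1.5 times without DMSO replicate 1 (8), 2 (6) or 3 (5), AM580 replicate 2 (7), CD3254 replicate 2 (5) or 3 (7, with Syt11 lower) and AM+CD replicate 1 (8), and ENSMUSG00000096252 was lower without 9-cis retinoic acid replicate 3. The other fits gave 9 to 15 higher and 0 lower. Rxra turned to -0.011 without CD3254 and -0.080 in the 5-library set. Same-numbered replicates correlated from -0.68 to 0.81 over 30 pairs, 20 of them over 0.1. Of the other 10 same-numbered pairs, 8 held AM+CD replicate 1 or 2. Pairs with different numbers ranged from -0.70 to 0.76, and all pairs across the library sets were negative. The correlations thus follow the library set and do not decide pairing, and the numbers were not taken as pairing. A replicate block gave 9 higher with the library set term (AC117700.1, AI661453, Muc1 and Pde7b did not pass) and 4 without it, and 0 lower. The causes were not tested. Dhrs3, Rarb, Pim3 and Enpp1 passed in 18 of 19 fits other than those leaving out 1 library, all but the 5-library set alone. Genes under about 1 CPM, such as Rarb and Muc1 without a RAR ligand, rest on 8 to 32 reads a library.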
